A study of Homo sapiens with 8 samples.

Results

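Many protein-coding genes have transcripts that RefSeq, NCBI's curated transcript collection, files as noncoding RNA (accessions beginning NR_) beside the coding ones (NM_). The transcripts described here are NR_ rows of genes that also had an NM_ row in the deposited tables, with a usable estimate in every table and a mean over the 8 libraries of at least 5 FPKM (fragments scaled by transcript length and sequencing depth). Of 49235 rows, 10746 were NR_ rows and 2345 of those belonged to a gene with an NM_ row. Failed or too deep estimates removed 9 and the level minimum removed 2131, which left 205 noncoding isoforms of 190 genes. Each gene had 1 such isoform in 177 cases, 2 in 11 and 3 in 2. The mean FPKM chose them, so their level is a description and not a result.

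The RNA came from H1, a widely used human embryonic stem cell line, grown without feeders, and was sequenced as total RNA after removal of ribosomal RNA. Doxycycline switched on a short hairpin RNA, which was either shEXOSC3, directed at a subunit of the RNA exosome, or the non-silencing control shNS. There was 1 library for each of 8 groups. These were shEXOSC3 with doxycycline, shEXOSC3 without, shNS with doxycycline and shNS without, each on day 5 and on day 7. No group had a replicate, so no value has a replicate error, and a difference between single libraries has no replicate check. Both lines were under puromycin, and the labels do not say whether a line was 1 clone.

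A noncoding isoform of a coding gene usually arises by alternative splicing. It may keep an intron, include an exon that brings a stop codon into the reading frame, or lose an exon and shift the frame. Transcripts with a stop codon well upstream of the last exon junction are typical targets of nonsense-mediated decay (NMD), a cytoplasmic surveillance pathway that UPF1 and the SMG proteins carry out on translated mRNA. Transcripts that keep an intron often stay in the nucleus, where the RNA exosome degrades many unspliced and noncoding RNAs. Several splicing factors regulate their own amount by splicing part of their output into such forms, through so-called poison exons.

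EXOSC3 itself, by its NM_016042 row, was at 7.54 FPKM with doxycycline and 24.5 without in shEXOSC3 cells on day 5, and at 9.13 and 25.2 on day 7. In shNS cells the same row stayed between 26.9 and 27.8 FPKM in all 4 libraries. The other EXOSC3 row, NM_001002269, lay between 0 and 3.77 FPKM in the 8 libraries. It was highest in the doxycycline shEXOSC3 libraries, at 3.77 FPKM on day 5 and 3.22 FPKM on day 7. Their untreated partners were at 0.627 and 0 FPKM. Summed over both rows, EXOSC3 in shEXOSC3 cells was at 11.3 and 25.2 FPKM with and without doxycycline on day 5. On day 7 the sums were 12.3 and 25.2 FPKM, and in shNS cells the sums lay between 27.3 and 30.3 FPKM. The 6 H1 identity genes POU5F1, NANOG, SOX2, LIN28A, DNMT3B and TDGF1 summed to 1296 to 1510 FPKM in the doxycycline libraries of both lines and to 1728 to 1777 FPKM without. Of 12 fibroblast and stromal genes, 8 reached 1 FPKM in some library, and the list summed to 102 to 232 FPKM. Most of that sum in each library was THY1, at 74.1 to 197 FPKM. COL1A1 lay between 3.87 and 20.03 FPKM and COL1A2 between 9.85 and 16.7 FPKM. DCN and LUM were at 0 in all 8 libraries. Low values that recur across rows put the depth of the doxycycline library over that of the untreated library at a ratio of 1.01 on day 5 and 0.917 on day 7 for shEXOSC3, and of 1.59 and 1.33 for shNS. What these differences contribute to the values below was not tested.

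The annotated structures matched to the isoforms describe what kind of RNA this set holds, as far as the matches go. GENCODE release 29, a gene annotation on GRCh38, has a match for all but 15 of the 205 accessions and classes 94 of them as protein coding, 69 as nonsense-mediated decay, 20 as processed transcripts without a reading frame and 7 as retained introns. The largest class is thus noncoding by RefSeq's filing and matched to a transcript that GENCODE calls coding. A match need not be the same RNA: the transcript matched to VEZT NR_038242 was also that of a coding row of VEZT. The same held for an isoform of KLHL7. Of the 94, 71 could be laid against another coding transcript of their gene. Of the 165 isoforms that could be laid against a coding transcript of their gene, 9 kept an intron, 41 had an extra exon, 59 lacked an exon and 62 had none of these differences. Some had more than 1. In all 69 isoforms of the decay class the annotated stop codon lay more than 50 bases before the last exon junction, the distance by which such transcripts are usually classed, with a median of 410 bases and a range of 52 to 3804. Their annotated reading frames had a median of 264 coding bases, against 1158 in the coding partners.

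The stop codons that give such isoforms their class can be read directly. The following lines give the last 30 coding bases of 6 isoforms of the decay class from the GENCODE transcripts, with the stop codon in capitals. They were chosen because splicing factors with poison exons (SRSF3, SRSF6, RBM39 and RBMX) and isoforms described below (WDR20 and FUBP1) carry the results or the background most clearly.
SRSF3 NR_036610: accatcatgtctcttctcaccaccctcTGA
SRSF6 NR_034009: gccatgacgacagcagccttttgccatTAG
RBM39 NR_040724: tttgattccagtgtgaactgtcaatcaTAA
RBMX NR_028476: aatggaaagatgacggtggatattccaTGA
WDR20 NR_038354: tacaagggggtccgcaagacaatcccaTGA
FUBP1 NR_130152: gatccagccagtatagaactagctctgTAG
In SRSF3, an SR protein that directs splice site choice, the TGA ends at chr6:36599854 (GRCh38, plus strand) within an extra exon of 456 bases and 548 bases before the last junction. SRSF6, another SR protein, has its TAG at chr20:43459304 on the plus strand in an extra exon of 268 bases. For RBM39, a U2AF-related splicing factor, the TAA ends at chr20:35740526 on the minus strand in an extra exon of 73 bases, and the annotated frame up to it has 120 coding bases against 1572 in the coding transcript. RBMX, an X-linked RNA-binding protein, has its TGA at chrX:136876635 on the minus strand in an extra exon of 153 bases. The WDR20 window crosses a junction, and its TGA ends at chr14:102193474 (plus strand) in an extra exon of 52 bases. FUBP1, a DNA- and RNA-binding regulator of MYC, differs: its stop at chr1:77947514 on the minus strand is 61 bases before the last junction and leaves 1959 coding bases, against 1932 in the coding transcript.

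Retained introns leave another signature. The lines below give the first 30 and the last 30 bases of the introns kept in CLK1 and SRA1, with the splice site dinucleotides in capitals, because the shares of these isoforms are described further on.
CLK1 intron of 1022 bases, start: GTatgaacgtttttaaaacattttggaaat
CLK1 intron of 1022 bases, end: atcttggtgccgcccacttgacgtttccAG
CLK1 intron of 378 bases, start: GTatagaatatttttcaacacttattaact
CLK1 intron of 378 bases, end: atatgactgagatttatttctctcttttAG
SRA1 intron of 155 bases, start: GTgagcgcagccggcgggctagggcactag
SRA1 intron of 155 bases, end: gctcgcttcacacatccctcgcctccgcAG
The CLK1 introns lie at chr2:200860216-200861237 and chr2:200859747-200860124 and the SRA1 intron at chr5:140557273-140557427 (GRCh38, all on the minus strand and inside the coding span of the partner transcript). All 3 begin with GT and end with AG, the dinucleotides of ordinary introns.

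The isoforms ranged from 5.03 to 474 FPKM by their mean over the 8 libraries, with a median of 9.63, and 45 of them reached 20 FPKM. Just inside the minimum were PSMG1 at 5.03, ZNF718 at 5.07 and METTL26 at 5.08 FPKM. Just outside it were EIF6 at 4.99, HUS1 at 4.91 and CTPS1 at 4.90 FPKM. The highest mean belonged to NR_037688 of ACTG1, the cytoplasmic gamma actin gene (chr17:79476997-79479892 on hg19, the build of the tables). ATP5ME, a subunit of the mitochondrial ATP synthase, LDHA, the lactate dehydrogenase of glycolysis, NGRN, a factor of mitochondrial ribosome assembly, FUBP1, NOP56, a core protein of C/D box snoRNPs, TKT, the transketolase of the pentose phosphate pathway, and MDK, a heparin-binding growth factor, followed. In all, 152 of the 205 were above 0 in each library and 53 were listed at 0 in at least 1.

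Noncoding and coding rows of a gene share most of their sequence, so the noncoding share is used here: the FPKM of the isoform as a percent of that FPKM plus the summed NM_ rows of the gene in the same library. Averaged over the libraries it was above 50% for 53 isoforms and below 10% for 26. It stayed above 50% in all 8 libraries for 24 and below 50% in all 8 for 84, while 97 had libraries on both sides. At the top was NR_073030 of TIMM23, a channel subunit of the mitochondrial inner membrane translocase, whose NM_ rows were listed at 0 in all 8 libraries while the noncoding row lay between 30.01 and 62.4 FPKM. Both noncoding rows of ACTR6, an actin-related chromatin protein, followed, together with NSF, the ATPase that disassembles SNARE complexes, which lies on an alternate haplotype of chromosome 17. NR_048569 of ACTR6 held 99.1 to 100% of its gene and NR_048568 held 91.4 to 100%, each against the coding rows alone. At the other end stood TARS1 NR_047676 with 0.448 to 4.29%, PTGES3 with 2.10 to 2.53%, SLC3A2 with 2.32 to 4.46% and ACP1 with 0 to 16.6%. These genes encode threonyl-tRNA synthetase, the HSP90 cochaperone p23, the heavy chain of amino acid transporters and a small tyrosine phosphatase. PTGES3 was the steadiest of the 4, with all 8 shares inside less than a percentage point.

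The median share differed more between days than between doxycycline and no doxycycline. The median share over the 205 isoforms was 37.3% with doxycycline and 37.8% without in shEXOSC3 on day 7, and 35.5% and 33.2% in shNS. On day 5 it was 24.2% with doxycycline and 28.1% without in shEXOSC3, and 24.6% and 24.1% in shNS. The classes differed in this. The class median lay between 36.1% and 39.4% on day 7 and between 20.9% and 29.3% on day 5 for the decay class, and between 29.4% and 42.0% on day 7 and 19.7% and 21.5% on day 5 for the class GENCODE calls coding. For the 20 processed transcripts it was the other way round, 16.1% to 30.9% on day 7 and 41.2% to 48.7% on day 5. The summed FPKM of all 205 isoforms as a percent of that sum plus their coding rows overlapped between days, at 26.4% to 27.7% on day 7 and 23.8% to 32.4% on day 5. All 4 day 7 shares were above all 4 day 5 shares for 75 isoforms and below them for 55, and the days overlapped for the other 75. By level, 85 isoforms had all 4 day 7 values above all 4 day 5 values and 56 had them below, while among all 10582 rows of mean FPKM 5 or more the percentages were 29.2 above and 34.9 below. The 3 rows with the most FPKM took 6.21% to 7.16% of the total in the day 7 libraries and 23.8% to 27.6% on day 5. Day, table and any processing that went with the day cannot be told apart here.

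**Figure D1:**
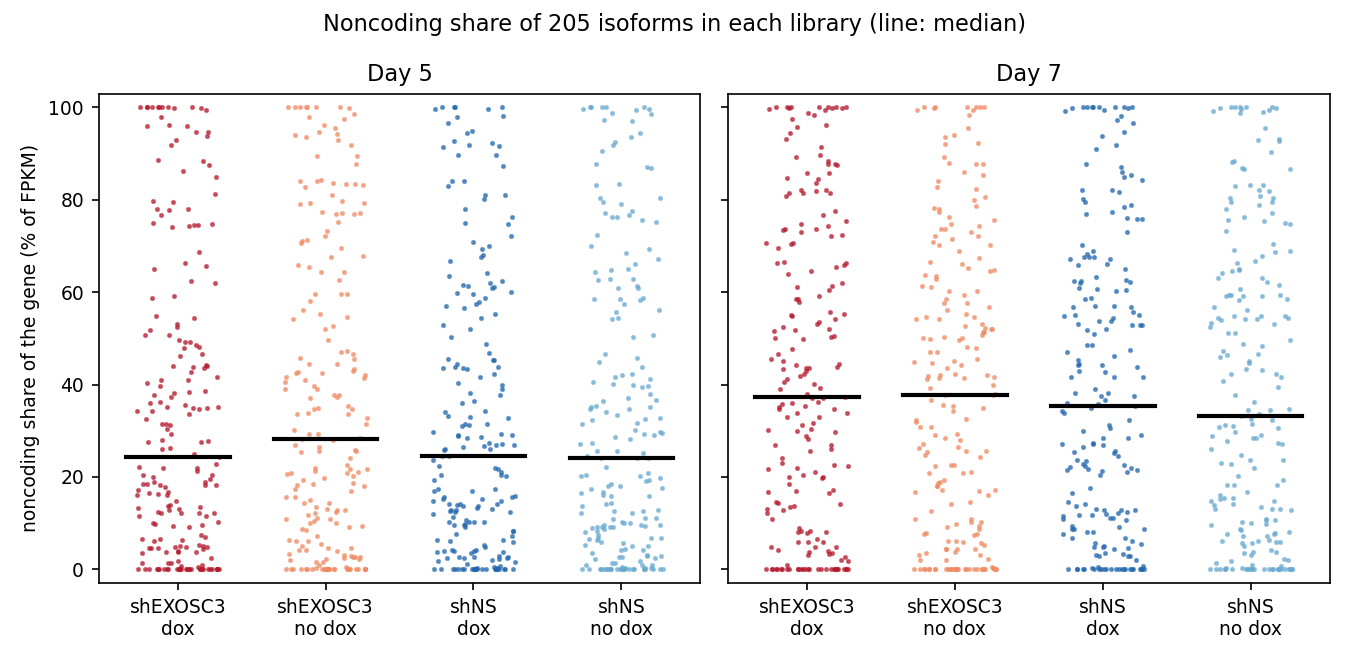
Noncoding share of each of the 205 isoforms (percent of the FPKM of the isoform plus the coding rows of its gene, vertical axis) in the 8 libraries (horizontal axis, 1 panel per day). Points are isoforms and black lines are medians; the medians run from 33.2% to 37.8% on day 7 and from 24.1% to 28.1% on day 5, with no common step between doxycycline and no doxycycline.

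Some isoforms were present on 1 day and near absent on the other. With 5 FPKM in all 4 libraries of a day as present and under 0.1 FPKM in all 4 of the other day as absent, 10 isoforms (4.88%, against 1.76% of all rows) were present on day 7 and absent on day 5, among them rows of TUBB, ELP2, RBM39 and FOSL1. Another 8 (3.90%, against 1.19% of all rows) were present on day 5 and absent on day 7. ACTG1 NR_037688 was among these. It was listed at 0 in all 4 day 7 libraries, whereas on day 5 it had 1024 FPKM with doxycycline and 1485 without in shEXOSC3, and 613 and 671 in shNS. The coding ACTG1 rows meanwhile summed on day 7 to 937 FPKM with doxycycline and 1073 without in shEXOSC3, and 1044 and 1099 in shNS, within the 541 to 1073 FPKM of day 5 or just above. TKT NR_047580, of the decay class, had 115 and 285 FPKM in shEXOSC3 with and without doxycycline and 129 and 132 in shNS on day 5, but at most 0.00329 FPKM on day 7. PSMA3 NR_038123, of a proteasome core subunit, lay between 46.3 and 74.8 FPKM on day 5 and was listed at 0 on day 7. Whether a 0 in a gene whose other rows are well measured is absence or a failed estimate was not tested.

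Over the 8 libraries the isoforms varied more than other rows. The highest library over the lowest, after adding 1 FPKM to each, had a median of 7.50-fold for the 205 isoforms, 4.06-fold for the NM_ rows of the same genes, 1.89-fold for genes with a single accession and 2.37-fold for all 10582 rows. It reached 10-fold in 88 isoforms (42.9%), against 19.1% of all rows, and stayed under 2-fold in 22. Summing each isoform with the coding rows of its gene brought the median to 1.93-fold, with 5 sums at 10-fold or more. The median isoform level was 9.63 FPKM and that of all rows 14.7 FPKM, so the 2 sets also differ in level. Isoforms classed protein coding by GENCODE had a median spread of 13.2-fold, the decay class 5.37-fold, processed transcripts 4.35-fold and the 7 retained introns 3.40-fold. By structure, isoforms lacking an exon had the widest median spread, 18.99-fold, and those with an extra exon had 3.77-fold.

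**Figure D2:**
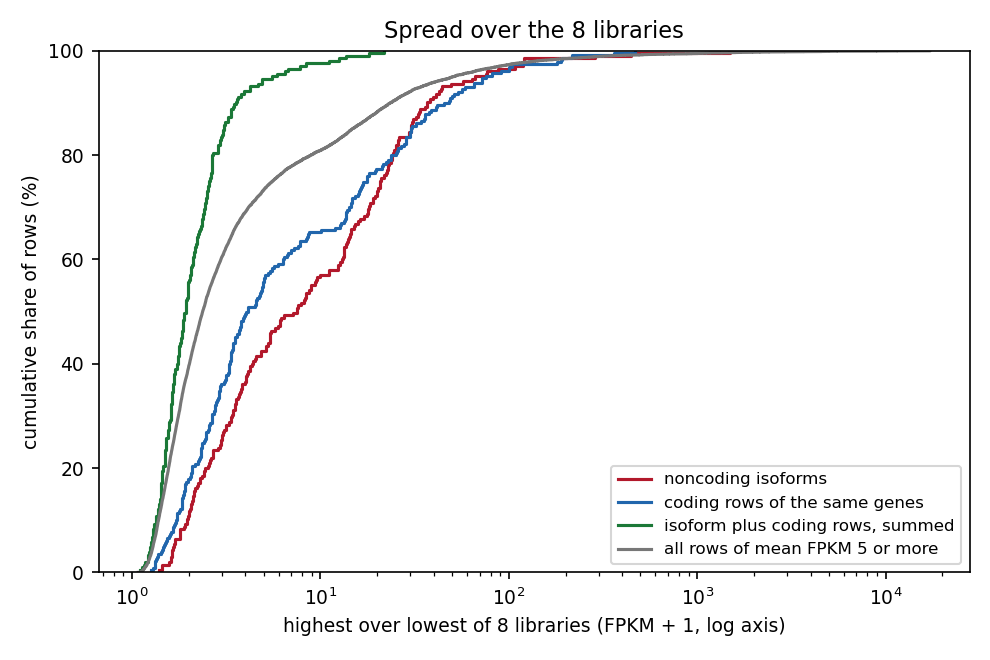
Cumulative percent of rows (vertical axis) against the highest over the lowest of the 8 libraries after adding 1 FPKM (horizontal axis, log scale) for 205 noncoding isoforms, the 230 coding rows of the same genes, the 205 sums of isoform and coding rows, and all 10582 rows. The isoforms lie farthest right, with a median of 7.50-fold, and the sums lie near 1.93-fold.

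Where an isoform differed between the libraries of a table, the coding rows of its gene often differed the other way. Across the 205 isoforms the log2 ratio of doxycycline over no doxycycline (FPKM + 1) had a Pearson correlation with that of the summed coding rows of −0.43 on day 5 and −0.46 on day 7 in shEXOSC3, and of −0.21 and −0.51 in shNS. Each correlation is over genes of 1 pair of libraries, whose rows share reads and are not independent. Of the isoforms past a 2-fold ratio, the coding sum went the opposite way in 28 of 35 and 20 of 30 in shEXOSC3 on days 5 and 7, and in 9 of 16 and 27 of 36 in shNS. The total of isoform and coding rows also passed 2-fold in 1 and 3 of these in shEXOSC3 and in 0 and 2 in shNS. SCAMP1, a carrier membrane protein of the secretory pathway, shows the pattern: its NR_110885 row had 5.73 FPKM with doxycycline and 22.9 without in shEXOSC3 on day 5, while the coding rows had 17.1 and 5.81. SCAMP1 was picked because it had the smallest q among the isoforms in that comparison of the authors' deposited table, 0.353.

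**Figure D3:**
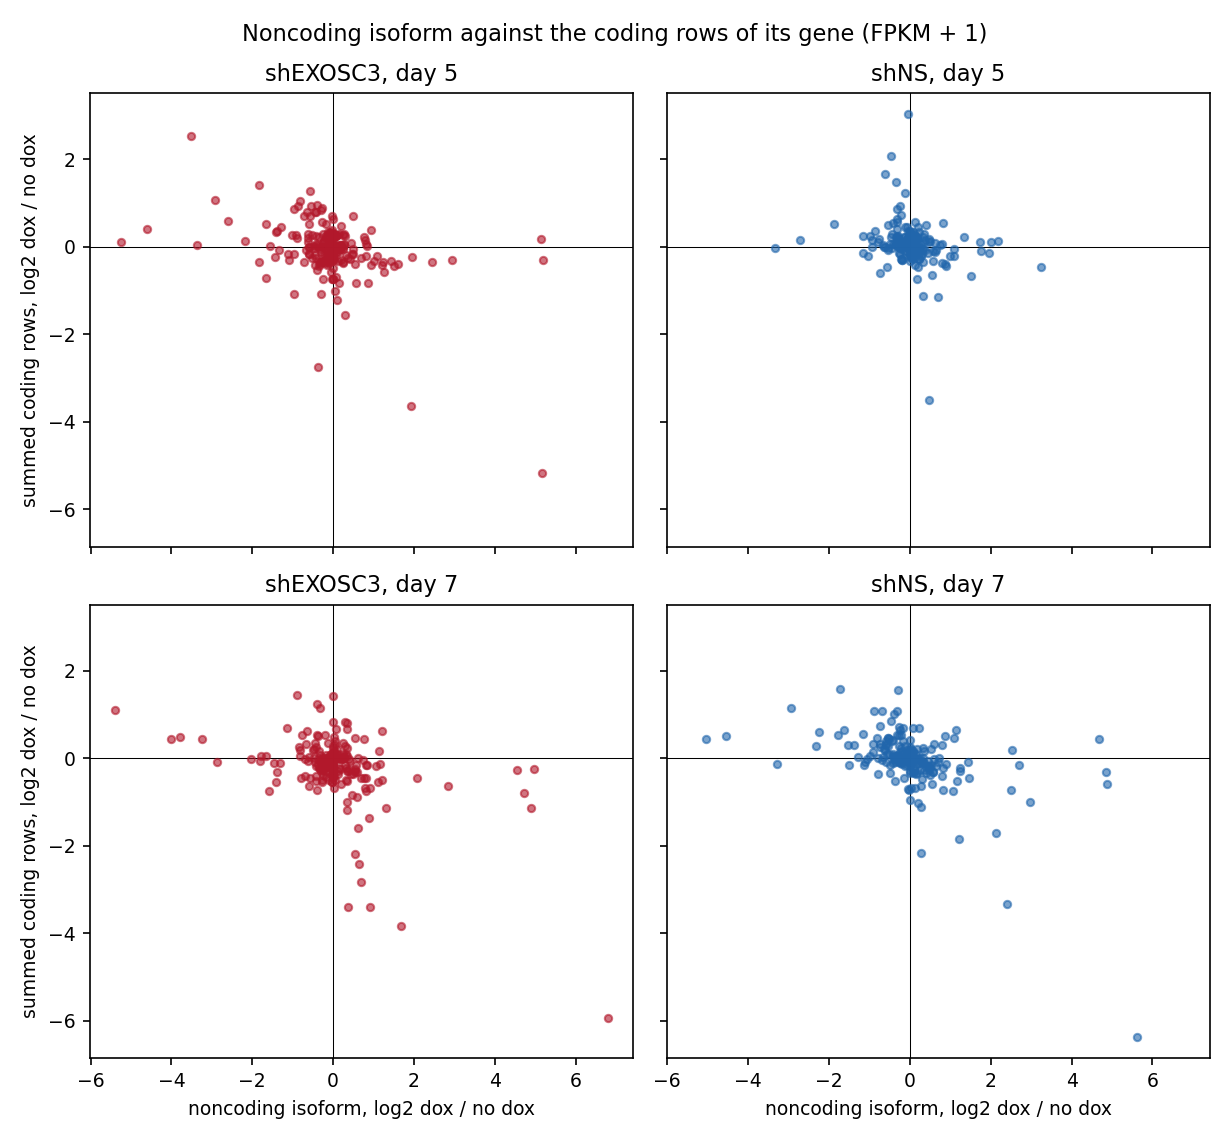
Log2 ratio of doxycycline over no doxycycline (FPKM + 1) of the summed coding rows (vertical axis) against that of the noncoding isoform (horizontal axis) for 205 isoforms, with 1 panel per line and day. Points far from 0 on the horizontal axis lie mostly on the other side of 0 or near it on the vertical axis; the correlations are −0.43 and −0.46 in shEXOSC3 and −0.21 and −0.51 in shNS.

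The comparison the study was built for sets the doxycycline response of shEXOSC3 cells against that of shNS cells. In shEXOSC3 the isoforms at least 2-fold higher with doxycycline numbered 15 on day 5 (7.32%, against 3.77% of all rows) and 15 on day 7 (7.32%, against 4.65%). At least 2-fold lower were 20 on day 5 (9.76%, against 3.65%) and 15 on day 7 (7.32%, against 4.7%). In shNS, 10 were higher on day 5 (4.88%, against 2.2%) and 19 on day 7 (9.27%, against 4.87%), and 6 were lower on day 5 (2.93%, against 1.81%) and 17 on day 7 (8.29%, against 4.22%). The isoforms thus passed 2-fold more often than all rows did in either direction, in the control line too. So did the coding rows of the same genes. Counting both directions, 17.1% of the isoforms and 13.5% of these coding rows passed in shEXOSC3 on day 5, and 14.6% and 15.2% on day 7. In shNS 7.80% of the isoforms and 7.39% of the coding rows passed on day 5, and 17.6% and 14.3% on day 7. On both days in shEXOSC3, 4 isoforms were at least 2-fold higher (1.95%, against 0.454% of all rows), those of ACP1, PAXBP1, TPM3 and ZDHHC20, and 0 were lower (against 0.548%).

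The adjusted difference subtracts the log2 ratio of shNS from the shEXOSC3 log2 ratio on each day. It was at least 1 on both days for 4 isoforms (1.95%, against 0.851% of all rows) and at most −1 on both days for 2 (0.976%, against 0.945%). In 7 isoforms (3.41%, against 1.63% of all rows) the adjusted difference passed 1 in opposite directions on the 2 days, as in 11 (4.78%) of the 230 coding rows of the same genes. All 7 were down on day 5 and up on day 7. Of the coding rows 3 had that order and 8 the reverse, and of all rows 83 and 90. The adjusted difference was above 0 on both days for 35 isoforms (17.1%, against 21.2% of all rows) and below 0 on both days for 50 (24.4%, against 31.4%). The median was −0.03 on day 5 and 0.00 on day 7 for the isoforms, and −0.05 and −0.02 for all rows. For the 230 coding rows of the same genes 2 were past the rule upwards and 6 downwards, and for the totals of isoform and coding rows 0 were past it either way.

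With limma on the 4 log2 ratios, which sets the difference between the lines against the spread between days, 0 of the 205 isoforms and 0 of all 10582 rows (0%) had an adjusted p under 0.05. At an unadjusted p under 0.05 there were 6 isoforms, 3 of them higher, and 433 rows in all (4.09%). Every alternative setting of limma also called 0 rows. The smallest unadjusted p among the isoforms was that of PAXBP1, with a limma difference of 2.41 (SE 0.342) and a limma adjusted p of 0.847. For comparison, the EXOSC3 row NM_016042 had a limma difference of −1.50 (SE 0.143) and a limma adjusted p of 0.847, so the test did not call the targeted gene either. Days are time points and not replicates. In the authors' deposited tables, whose test sets 1 library against 1, 0 isoforms had q under 0.05, and the smallest were 0.353 (SCAMP1) and 0.715 (ACP1) in shEXOSC3 and 0.807 (THUMPD2) and 0.129 (MEAF6) in shNS on days 5 and 7. The share of all rows under that q is not given here, so this 0 has no background beside it.

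The 4 isoforms past the rule upwards belonged to ACP1, PAXBP1, ZNF267 and WDR20. ACP1 NR_024080 (chr2:264869-278282, hg19) had in shEXOSC3 cells 6.61 and 0 FPKM with and without doxycycline on day 5, and 30.02 and 0 FPKM on day 7. In shNS cells it had 0 and 5.605 FPKM with and without doxycycline on day 5, and 0 and 0 FPKM on day 7. It was therefore above 0 in 3 libraries, 1 of them untreated shNS, and its adjusted difference was 5.65 on day 5 and 4.95 on day 7. That size depends on the 1 FPKM added to each value, since an untreated partner listed at 0 gives no ratio. The coding ACP1 rows summed to between 119.9 and 179 FPKM, so that the isoform was never more than 16.6% of the gene.

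PAXBP1, a nuclear partner of the muscle factors PAX3 and PAX7, had NR_027873 in shEXOSC3 cells at 11.4 and 3.10 FPKM with and without doxycycline on day 5, and 3.25 and 0.00661 FPKM on day 7 (chr21:34100425-34144169, hg19). In shNS cells the row was at 6.79 and 12.5 FPKM with and without doxycycline on day 5, and 6.31 and 8.38 FPKM on day 7. The order of doxycycline and no doxycycline was thus opposite in the lines on both days, the untreated shEXOSC3 libraries being the lowest of their day. Its share in shEXOSC3 cells was 40.9% and 12.5% of the gene with and without doxycycline on day 5, and 6.58% and 0.0104% on day 7, and in shNS cells 26.8% and 42.2% of the gene with and without doxycycline on day 5, and 11.1% and 13.5% on day 7. The locus also holds rows of another gene.

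ZNF267, a KRAB-type zinc finger gene, had NR_049749 in shEXOSC3 cells at 17.4 and 3.86 FPKM with and without doxycycline on day 5, and 0.000789 and 0.000795 FPKM on day 7. The shNS values were 12.2 and 15.5 FPKM with and without doxycycline on day 5, and 2.39 and 6.32 FPKM on day 7. On day 7 both shEXOSC3 libraries were below 0.001 FPKM, so the adjusted difference of 1.11 came from the shNS libraries alone. WDR20, a cofactor of the deubiquitinases USP12 and USP46, had NR_038354 in shEXOSC3 cells at 1.35 and 0.000373 FPKM with and without doxycycline on day 5, and 18.2 and 11.7 FPKM on day 7, and in shNS cells 1.39 and 1.22 FPKM with and without doxycycline on day 5, and 10.4 and 20.1 FPKM on day 7. Its adjusted difference was 1.12 on day 5 and 1.49 on day 7, and on day 7 the doxycycline shEXOSC3 value did not exceed that of untreated shNS cells.

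Downwards, DESI2 and TMEM14B passed the rule. With 5 FPKM added in place of 1, ACP1 and DESI2 alone of the 6 still passed. DESI2, a deSUMOylating isopeptidase family member, had NR_123736 in shEXOSC3 cells at 11.2 and 31.3 FPKM with and without doxycycline on day 5, and 0.0769 and 0.0769 FPKM on day 7. In shNS cells the values were 24.2 and 15.2 FPKM with and without doxycycline on day 5, and 28.3 and 0.00781 FPKM on day 7. The day 7 difference rested on 1 library, shNS with doxycycline. TMEM14B, a gene of a small transmembrane protein, had NR_104454 in shEXOSC3 cells at 0.00316 and 37.2 FPKM with and without doxycycline on day 5, and 0 and 0 FPKM on day 7, and in shNS cells 1.60 and 0.0179 FPKM with and without doxycycline on day 5, and 4.79 and 0 FPKM on day 7. On day 7 both shEXOSC3 libraries were listed at 0. By the shNS ratio, TMEM14B and THUMPD2 were the isoforms at least 2-fold higher with doxycycline on both days (0.976%, against 0.387% of all rows), and 0 were lower (against 0.331%). THUMPD2, an RNA methyltransferase family member, had NR_028102 in shEXOSC3 cells at 1.91 and 1.78 FPKM with and without doxycycline on day 5, and 14.2 and 8.78 FPKM on day 7, and in shNS cells at 4.95 and 1.08 FPKM with and without doxycycline on day 5, and 14.8 and 5.85 FPKM on day 7. Its coding rows were low where the isoform was high, in shNS cells at 5.95 and 10.1 FPKM with and without doxycycline on day 5, and 2.39 and 11.2 FPKM on day 7.

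**Figure D4:**
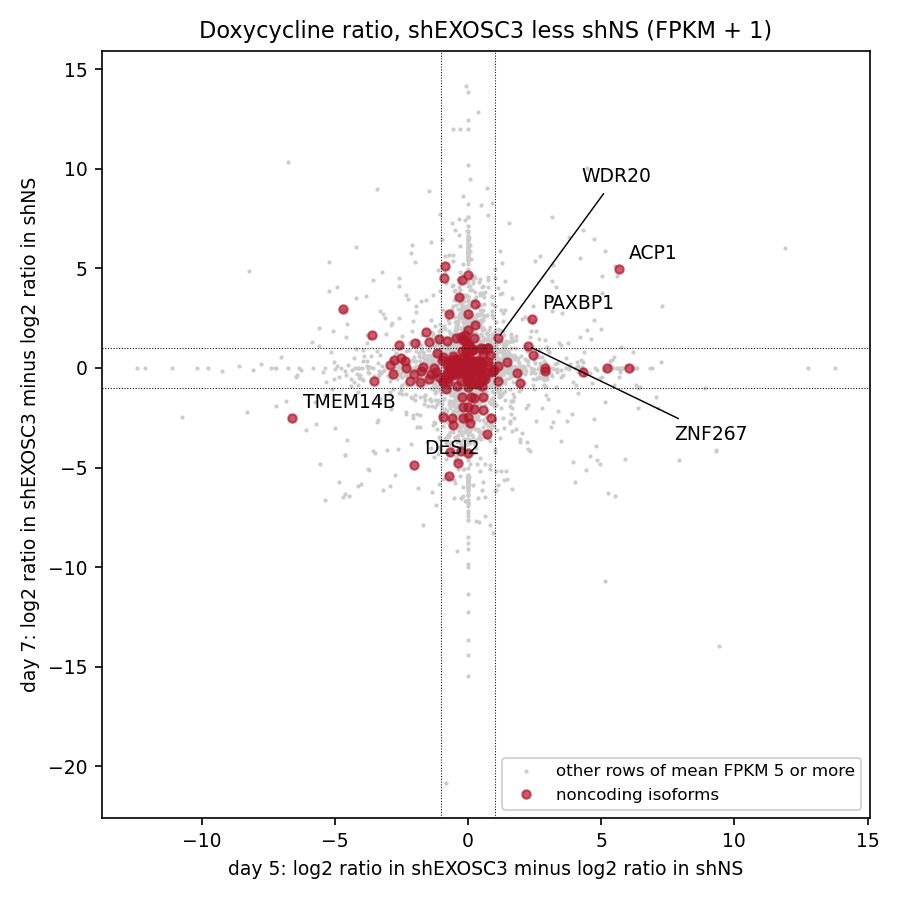
Adjusted log2 difference (shEXOSC3 log2 ratio less the shNS log2 ratio, FPKM + 1) on day 7 (vertical axis) against day 5 (horizontal axis) for 205 noncoding isoforms and the other rows of mean FPKM 5 or more. Dotted lines mark −1 and 1; the 6 labelled isoforms lie past them in the same direction on both days, and most others lie along 1 axis or near 0.

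Seen as shares, which are formed within a library, the isoforms had medians near 0. The median difference in share with doxycycline was −0.0019 percentage points on day 5 and 0 on day 7 in shEXOSC3, and −0.0965 and 0 in shNS. The shEXOSC3 difference minus the shNS difference had medians of −0.137 and 0.144 points. On day 5 this difference was at least 10 points upwards in 25 isoforms and downwards in 48, and on day 7 in 54 and 38. It was at least 10 points upwards on both days in 4 isoforms (EBPL, SRA1 and KCTD2 among them) and at least 10 points downwards in 14. By sign alone it was above 0 on both days in 46 and below 0 in 43. In shEXOSC3 alone the share was at least 10 points up in 22 and down in 39 on day 5, and in 38 and 22 on day 7. In shNS alone these counts were 14 and 21 on day 5, and 36 and 39 on day 7. The share is formed for the isoforms only, so no percentage of all rows stands beside these counts. The share was higher with doxycycline on both days in 47 isoforms in shEXOSC3 and 40 in shNS, and lower on both days in 50 and 58.

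Among the isoforms whose difference in share with doxycycline was larger in shEXOSC3 than in shNS, SRA1 kept an intron. SRA1, a gene known for both a coding and a noncoding product that act on nuclear receptors, had NR_045587 (chr5:139929652-139937678, hg19) in shEXOSC3 cells at 35.5 and 33.1 FPKM with and without doxycycline on day 5, and 13.8 and 7.96 FPKM on day 7. In shNS cells it had 35.02 and 31.8 FPKM with and without doxycycline on day 5, and 8.12 and 11.9 FPKM on day 7. Its share in shEXOSC3 cells was 93.9% and 83.3% of the gene with and without doxycycline on day 5, and 65.5% and 51.4% on day 7, and in shNS cells 98.03% and 98.7% of the gene with and without doxycycline on day 5, and 52.8% and 59.4% on day 7. Doxycycline libraries thus had the larger share on both days in shEXOSC3 and the smaller on both days in shNS. On day 5 the level differed little, while the coding rows were at 2.31 and 6.62 FPKM with and without doxycycline in shEXOSC3.

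KCTD2, an adaptor of CUL3 ubiquitin ligases whose NR_110834 is of the decay class, had shares in shEXOSC3 cells of 96.2% and 89.5% of the gene with and without doxycycline on day 5, and 58.4% and 58.6% on day 7, and in shNS cells 77.9% and 91.9% of the gene with and without doxycycline on day 5, and 67.5% and 86.9% on day 7. On day 7 the shEXOSC3 libraries were alike and the difference lay in shNS. EBPL, a relative of the sterol isomerase EBP, had NR_103803 in shEXOSC3 cells at 100% and 93.9% of the gene with and without doxycycline on day 5, and 66.4% and 24.7% on day 7, and in shNS cells 91.5% and 100% of the gene with and without doxycycline on day 5, and 8.69% and 45.9% on day 7.

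In the other direction the differences were as wide. RBM5, a splicing regulator of apoptosis genes, had NR_036627 in shEXOSC3 cells at 87.5% and 89.6% of the gene with and without doxycycline on day 5, and 0.155% and 25.6% on day 7, and in shNS cells 81.05% and 50.6% of the gene with and without doxycycline on day 5, and 37.6% and 27.1% on day 7. SUPT4H1, a subunit of the elongation factor DSIF, had NR_073470 in shEXOSC3 cells at 100% and 99.99% of the gene with and without doxycycline on day 5, and 0.0513% and 62.9% on day 7, and in shNS cells 100% and 79.4% of the gene with and without doxycycline on day 5, and 0.0218% and 0.0116% on day 7, so that on day 7 the untreated shEXOSC3 library stood apart from the other 3. The loci of RBM5 and SUPT4H1 hold rows of other genes. In all, 59 of the 205 isoforms have such a locus, among them those of NGRN, NOP56, RBMX and RPL13A. CPAP, a centriole assembly protein also called CENPJ, had shares in shEXOSC3 cells of 0.00809% and 14.4% of the gene with and without doxycycline on day 5, and 93.04% and 99.8% on day 7, and in shNS cells 4.20% and 0.00415% of the gene with and without doxycycline on day 5, and 70.1% and 59.3% on day 7. TIMM8B, a chaperone of the mitochondrial intermembrane space, had NR_028383 in shEXOSC3 cells at 59.2% and 77.3% of the gene with and without doxycycline on day 5, and 42.2% and 71.5% on day 7, and in shNS cells 52.03% and 54.4% of the gene with and without doxycycline on day 5, and 53.7% and 56.1% on day 7, and its doxycycline shEXOSC3 libraries were the lower of their pair on both days. GATAD1, a chromatin-associated zinc finger protein, differed by −23.7 points on day 5 and −15.6 points on day 7, and DESI2 by −33.98 points on day 5 and −34.2 points on day 7.

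**Figure D5:**
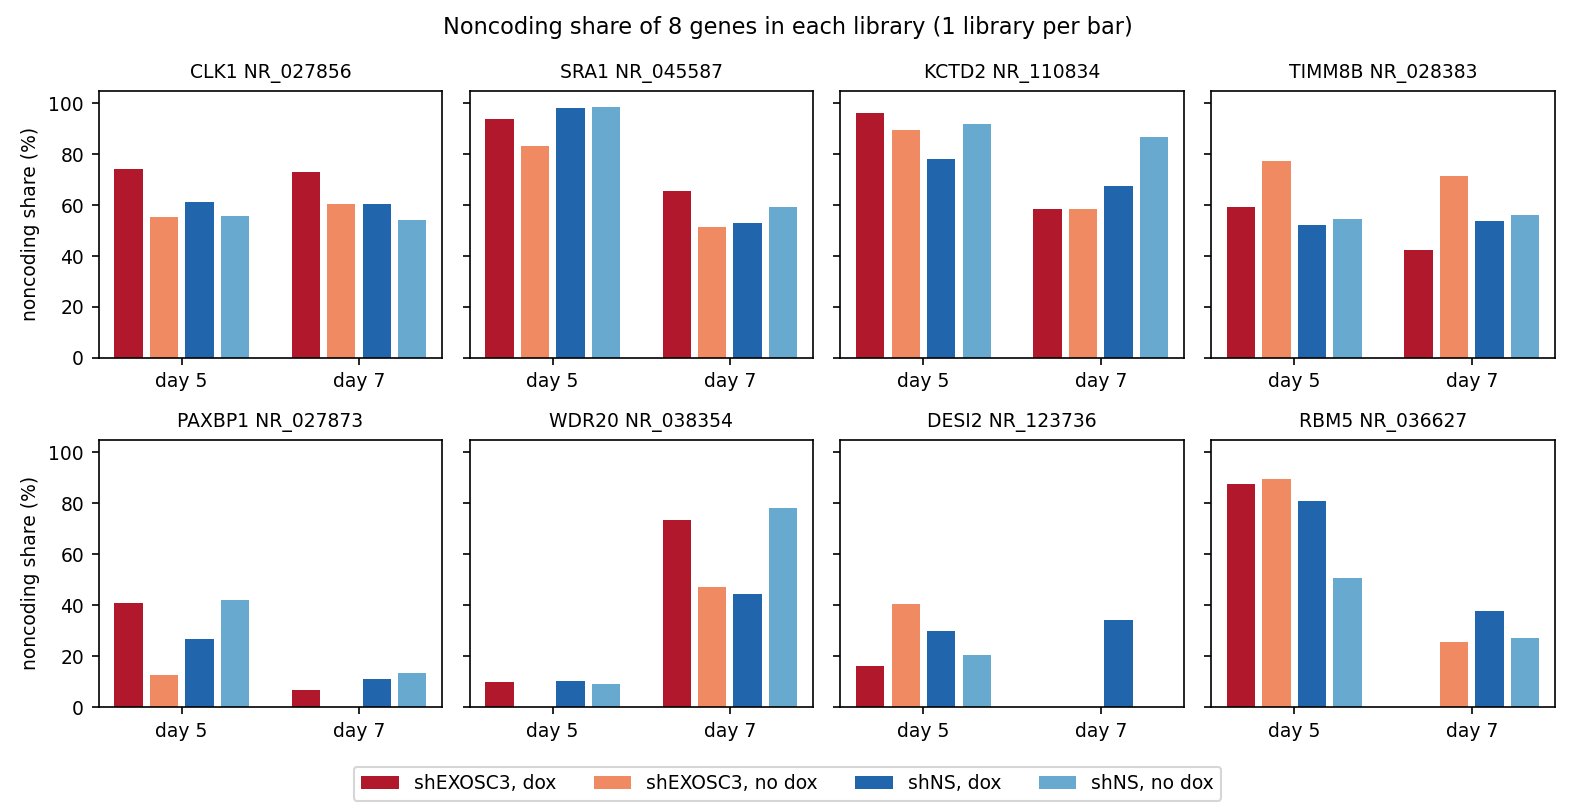
Noncoding share (percent of the FPKM of the isoform plus the coding rows of its gene, vertical axis) of the isoforms of CLK1, SRA1, KCTD2, TIMM8B, PAXBP1, WDR20, DESI2 and RBM5 in each library, with 1 bar per library grouped by day. CLK1 has its largest shares in the doxycycline shEXOSC3 library of either day, 74.0% and 72.9%; none of the other 7 plotted has its largest share there on both days.

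Isoforms that keep an intron were few. Over the 9 with such a structure the median share difference with doxycycline was 1.94 points on day 5 and 8.07 on day 7 in shEXOSC3, and 1.17 and −0.83 points in shNS. The share was higher with doxycycline on both days in 5 of the 9 in shEXOSC3 and in 2 in shNS. For the 41 with an extra exon the medians were 0.226 and 0.00246 points in shEXOSC3 and −0.508 and 0 in shNS, and for the 59 lacking an exon they were 0 in all 4 comparisons. This grouping was made after the values were seen, 2 of the 9 are rows of NT5C3B that share reads, and no test was run on it. CLK1, named here for its structure after its values were seen, encodes a kinase that phosphorylates SR proteins and is known for transcripts that keep introns and stay in the nucleus. Its NR_027856 row (chr2:201717732-201729467, hg19) had in shEXOSC3 cells 8.43 and 7.47 FPKM with and without doxycycline on day 5, and 11.7 and 11.6 FPKM on day 7. In shNS cells it had 8.34 and 8.17 FPKM with and without doxycycline on day 5, and 12.7 and 10.7 FPKM on day 7. The coding rows had in shEXOSC3 cells 2.96 and 6.06 FPKM with and without doxycycline on day 5, and 4.35 and 7.61 FPKM on day 7, and in shNS cells 5.27 and 6.51 FPKM with and without doxycycline on day 5, and 8.26 and 9.04 FPKM on day 7. The doxycycline shEXOSC3 libraries held the lowest coding level of their day and the isoform itself hardly differed. The share in shEXOSC3 cells was 74.02% and 55.2% of the gene with and without doxycycline on day 5, and 72.9% and 60.3% on day 7, and in shNS cells 61.3% and 55.6% of the gene with and without doxycycline on day 5, and 60.6% and 54.1% on day 7, a difference between lines of 13.2 points on day 5 and 6.15 points on day 7. CIRBP, a cold-inducible RNA-binding protein whose isoform keeps 3 introns, had shares in shEXOSC3 cells of 12.9% and 11.004% of the gene with and without doxycycline on day 5, and 5.82% and 4.33% on day 7, and in shNS cells 9.07% and 9.21% of the gene with and without doxycycline on day 5, and 4.91% and 5.74% on day 7. The difference between lines was 2.08 points on day 5 and 2.32 points on day 7.

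By gene list, the largest with members were splicing and RNA-binding factors and mitochondrial proteins, with 16 isoforms each. A list can hold a gene of another role. Over all rows 0.851% passed the adjusted rule upwards on both days and 0.945% downwards. The lists are too short for a 0, here or below, to set one apart from those rates. Of the 16 splicing isoforms 0 passed the adjusted rule in either direction, 1 was above 0 on both days and 5 were below 0. Among all rows 21.2% were above 0 on both days and 31.4% below. SRSF3 NR_036610, with its stop codon in the extra exon, had in shEXOSC3 cells 20.1 and 23.1 FPKM with and without doxycycline on day 5, and 15.6 and 21.1 FPKM on day 7, and in shNS cells 19.4 and 19.6 FPKM with and without doxycycline on day 5, and 16.8 and 19.9 FPKM on day 7. The 4 libraries of a day lay close together and the adjusted differences were −0.18 on day 5 and −0.18 on day 7. SRSF6 NR_034009 had shares in shEXOSC3 cells of 19.5% and 21.1% of the gene with and without doxycycline on day 5, and 14.1% and 16.1% on day 7, and in shNS cells 20.2% and 29.05% of the gene with and without doxycycline on day 5, and 12.8% and 19.4% on day 7. Its doxycycline share was the lower of the pair in both lines on both days. RBMX NR_028476 had in shEXOSC3 cells 29.2 and 64.5 FPKM with and without doxycycline on day 5, and 67.2 and 72.96 FPKM on day 7, and in shNS cells 45.3 and 37.5 FPKM with and without doxycycline on day 5, and 70.6 and 61.9 FPKM on day 7. PSPC1, a paraspeckle protein, had NR_003272 in shEXOSC3 cells at 31.1% and 29.3% of the gene with and without doxycycline on day 5, and 57.95% and 56.1% on day 7, and in shNS cells 31.5% and 40.1% of the gene with and without doxycycline on day 5, and 56.9% and 59.1% on day 7. RBM39 had 3 isoforms over 1 set of coding rows. NR_040724 lay between 16.6 and 54.6 FPKM, while NR_040723 was listed at 0 in all 4 day 5 libraries and had 9.87 to 40.1 FPKM on day 7.

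RNA decay factors had 3 isoforms, none past the rule on both days (0 of 3). EXOSC7, a ring subunit of the exosome, had NR_023353 in shEXOSC3 cells at 8.66 and 4.9992 FPKM with and without doxycycline on day 5, and 4.98 and 8.01 FPKM on day 7, and in shNS cells 7.41 and 8.59 FPKM with and without doxycycline on day 5, and 4.73 and 6.59 FPKM on day 7. Its adjusted difference was 0.88 on day 5 and −0.18 on day 7, changing sign between days. NBAS, a Golgi to ER transport protein that also acts in NMD, had NR_052013 with an adjusted difference of −2.76 on day 5 and 0.38 on day 7. LSM1, an activator of decapping, had NR_045493 with −0.25 on day 5 and 0.08 on day 7. The genes of the decay machinery, summed over all their rows, also had 0 past the rule in either direction. These were 0 of 14 exosome subunits and cofactors, 0 of 21 NMD factors tested, 0 of 84 RNA decay factors and 0 of 199 splicing and RNA-binding factors. Among 8964 genes summed, 27 were higher and 18 lower. EXOSC3, the targeted gene, was among the 14, at −1.11 on day 5 and −0.84 on day 7, so the rule on summed genes missed the targeted gene too. By single rows, the way the isoforms were judged, the higher EXOSC3 row did pass, at −1.63 on day 5 and −1.37 on day 7. The lower EXOSC3 row went the other way, at 2.05 and 3.96.

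The mitochondrial list, which also held an isoform of the nucleolar protein SURF6, had 0 of 16 isoforms past the rule. On both days 1 was above 0 and 6 were below 0, where all rows had 21.2% above and 31.4% below. PRDX3, a mitochondrial peroxidase, had NR_126106 in shEXOSC3 cells at 9.19 and 20.6 FPKM with and without doxycycline on day 5, and 102 and 126 FPKM on day 7, and in shNS cells 25.6 and 7.02 FPKM with and without doxycycline on day 5, and 115 and 114 FPKM on day 7. ATP5ME NR_033743 had in shEXOSC3 cells 376 and 444 FPKM with and without doxycycline on day 5, and 0 and 2.43 FPKM on day 7 and in shNS cells 430.1 and 370.0 FPKM with and without doxycycline on day 5, and 0 and 8.74 FPKM on day 7, so that the day separated its libraries completely. The 4 isoforms of translation genes and the 5 of snoRNA hosts overlap in RPL13A and TARS1. RPL13A, a ribosomal protein gene that hosts snoRNAs in its introns, had NR_073024 between 83.5 and 120.0 FPKM on day 5. On day 7 it had 22.2 FPKM in shEXOSC3 cells with doxycycline and was listed at 0 in the other 3 libraries. NOP56, also a snoRNA host, had NR_027700 in shEXOSC3 cells at 45.8 and 50.7 FPKM with and without doxycycline on day 5, and 107 and 160.0 FPKM on day 7, and in shNS cells 50.5 and 52.6 FPKM with and without doxycycline on day 5, and 118 and 179 FPKM on day 7, with doxycycline lower in all 4 pairs. LDHA NR_028500 was likewise lower with doxycycline in all 4 pairs, in shEXOSC3 cells at 90.1 and 286 FPKM with and without doxycycline on day 5, and 194 and 343 FPKM on day 7, and in shNS cells 96.8 and 143 FPKM with and without doxycycline on day 5, and 208 and 270.1 FPKM on day 7.

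The remaining lists held few isoforms. Of 8 isoforms of chromatin and transcription factors 0 passed the rule. PHF14, a PHD finger protein, had NR_033436 between 22.8 and 31.9 FPKM in the 8 libraries and a share of 52.7% to 54.8% on day 7 and 77.0% to 80.3% on day 5. The zinc finger list had 1 of 4 past the rule, ZNF267, whose day 7 difference came from the shNS libraries alone. ZNF714 NR_117087 lay between 15.02 and 33.1 FPKM, and ZNF585A NR_110152 held 82.04 to 94.6% of its gene. None of 5 cell cycle and repair isoforms passed (0 of 5). CHEK1, the replication checkpoint kinase, had NR_045205 between 6.51 and 13.3 FPKM. POLD1, the catalytic subunit of DNA polymerase delta, had NR_046402 in shEXOSC3 cells at 26.03% and 58.005% of the gene with and without doxycycline on day 5, and 47.7% and 70.2% on day 7, and in shNS cells 40.4% and 22.05% of the gene with and without doxycycline on day 5, and 48.5% and 82.9% on day 7. The 8 isoforms of ubiquitin, proteasome and folding genes and the 7 of membrane traffic and cytoskeleton had 0 past the rule. The latter 7 include both isoforms of ACTR6, the chromatin protein named above.

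Of the pluripotency genes, USP44, a deubiquitinase abundant in embryonic stem cells, had NR_125360 in shEXOSC3 cells at 6.52 and 6.73 FPKM with and without doxycycline on day 5, and 16.4 and 12.5 FPKM on day 7. In shNS cells it had 8.29 and 11.3 FPKM with and without doxycycline on day 5, and 71.4 and 54.2 FPKM on day 7. On day 7 this row was far lower in both shEXOSC3 libraries than in both shNS libraries, with or without doxycycline. The coding rows of USP44 did not differ that way. On day 7 they summed to 315 and 386 FPKM with and without doxycycline in shEXOSC3, and 261 and 333 FPKM in shNS. Isoform and coding rows together had a highest library 2.14-fold the lowest, on the scale of the spreads given above. OTX2, a homeobox factor of the epiblast and forebrain, had NR_073036 in shEXOSC3 cells at 2.92 and 4.47 FPKM with and without doxycycline on day 5, and 20.1 and 18.5 FPKM on day 7, and in shNS cells 3.93 and 7.29 FPKM with and without doxycycline on day 5, and 17.9 and 16.96 FPKM on day 7, with all day 7 values above all day 5 values. TNFRSF10B, a p53 target that encodes the death receptor DR5, had NR_027140 at 14.7 to 22.0 FPKM on day 7 and at most 0.400 FPKM on day 5. Summed with the coding rows of its gene, the highest library was 1.63-fold the lowest, on the scale of the spreads given above. The adjusted difference of the isoform was 0.49 on day 5 and −0.27 on day 7. Neither the H1 identity list nor the fibroblast list had an isoform in the set (0 of each).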

How the data were processed

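Total RNA was made into ribosomal RNA-depleted ScriptSeq libraries, per the labels' protocols. CASAVA 1.8, TopHat and Cufflinks were used with hg19 (GRCh37), per the submitters' processing notes, and other versions, the annotation release, library scaling and strand use are not stated there. The authors deposited 4 tables, each with the doxycycline and untreated library of 1 line and day, as FPKM with 1 row per RefSeq accession, per the file headers. They also deposited a p-value and q-value per row from 1 library against 1. Depth as read totals is unknown from FPKM, and FPKM divide shared reads among overlapping rows, so an isoform's value depends on that division. Without a stated strand, overlapping genes cannot be separated.

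Accessions were matched to symbols by a RefSeq table on GRCh38.p14, used for names (97.8% of 49235 rows matched). Rows marked FAIL or HIDATA in a table, or with a mean below 5 FPKM, were left out of tests. Ratios were formed within a table as log2((FPKM + 1)/(FPKM + 1)), a scale that understates changes of low rows. With 1 library per group, a row passed by size, an absolute value of at least 1. limma 3.58.1 in R 4.3.3 was run on the 4 ratios with an expression trend, 2 residual degrees of freedom and a Benjamini-Hochberg threshold of 0.05, and tested on simulated data. Python 3.11.15 with pandas 2.3.3 was used elsewhere. Sequences and structures came from GENCODE release 29 (GRCh38), joined by accession and never by coordinates. An isoform was laid against the coding transcript of its gene's highest NM_ row that had one.

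The isoforms, lists and rules were chosen with earlier results of these data known. Named isoforms were the 8 highest by mean, those past the size rule on both days, the 6 in each direction by share among rows above 0 in all libraries, the 4 highest and 4 lowest shares, up to 2 per gene list, the 3 on each side of the minimum, those past the rule in shNS on both days, and EXOSC3. Other named isoforms (CLK1, CIRBP, SRSF3, SRSF6, RBM39, SCAMP1, TPM3, ZDHHC20 and those present on 1 day) were picked after their values were seen. An isoform that these rules name is not reported here. A named isoform was to be looked at again if its ratios were past 2-fold one way on both days in shEXOSC3 and the other way on both days in shNS, and 0 were.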

Additional observations from a re-analysis of the deposited data

How the results depend on the processing

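With 1 library per group no replicate could be left out, and the labels give no replicate numbers to pair by. With day as a block limma called 0 isoforms, with 9 at an unadjusted p under 0.05 against 6 without the block. The counts of isoforms past the size rule on both days, 4 higher and 2 lower, became 1 and 1 with a pseudocount of 5 FPKM and 5 and 5 with 0.1 FPKM. They became 0 and 1 at a minimum mean of 10 FPKM and 15 and 13 of 636 at 1 FPKM. For rows above 0 in all 8 libraries they were 3 and 1, for the doxycycline libraries of shEXOSC3 over those of shNS, across tables, they were 2 and 4, and for genes summed over all accessions 0 and 0. Centring the ratios and a minimum locus length left them within 1.5 times, as did leaving out isoforms whose locus holds another gene, an alternative chosen after seeing the data. Summing the gene reversed ZNF267, at −0.25. The median difference in share on day 7 was 1.35 points among rows above 0 in all 8 libraries. The other medians moved by less than 0.1 log2 or 1 point, and limma called 0 isoforms in every setting run. The 12 isoforms chosen for their share kept their direction when all NR_ rows were set against all accessions.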
